A study of Rattus norvegicus with 20 samples.

Results

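Cd14, Cxcl13 and 8 further genes of lipopolysaccharide sensing were followed in the livers of 20 male Sprague-Dawley rats, an outbred laboratory strain. The 10 genes were Cd14, Lbp, Ly96, Tlr4, Tlr2, Myd88, Il1b, Tnf, Ccl2 and Cxcl13, out of 14217 genes with a named probe set on an Affymetrix rat genome array. Cd14 and Cxcl13 were picked because their mRNA differed between tofu-fed and casein-fed rats in these same arrays, and the other 8 were added as their partners and targets. The tofu against casein values of the 10 genes are therefore given as a description without a test, whereas the oil effect and the interaction were tested.

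Rats arrived at 4 weeks of age and were fed for 21 days, with 5 rats and 5 arrays in each of 4 groups. TF rats ate freeze-dried tofu and fish oil, TS rats ate freeze-dried tofu and soybean oil, CF rats ate casein and fish oil, and CS rats ate casein and soybean oil. Every diet held 200 g/kg of protein and 150 g/kg of fat, and the TF and CF diets had 50 g/kg of fish oil in place of as much soybean-derived fat. The tofu diets also held some casein, and tofu carries fat and other soybean components with its protein, so a tofu diet differs from a casein diet in more than the protein source. By the methods of the study the rats with the highest and the lowest food consumption of each group were not put on arrays, and each array held the liver RNA of 1 rat. Rats are named by their group and the number in the labels, such as TF-3.

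Lipopolysaccharide is a glycolipid of the outer membrane of gram-negative bacteria, and the liver meets it in the blood that drains the gut. LBP, a serum protein made by hepatocytes, carries it to CD14, a membrane-anchored or soluble protein without a signalling domain of its own, and CD14 passes it to the complex of TLR4 and MD-2 (Ly96). TLR4 signals through the adaptor MyD88 to NF-kB and to cytokine genes such as Il1b, Tnf and Ccl2. In the liver Cd14 is known from Kupffer cells, the resident macrophages, and hepatocytes can express it as well. CXCL13 is a chemokine that draws B cells to lymphoid follicles through its receptor CXCR5 and is not itself a part of lipopolysaccharide recognition.

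Expression is given as a z score, the log-scale signal of a probe set after the authors standardized each array to the distribution of its own signals. A difference of 0.2 in z stands for a 1.41-fold difference by the methods of the study. The values hold no measure of background, and a fold is given only for genes whose 4 group means all lay above the highest median of any array, a z of 0.022. Of the 10 genes 5 met this (Cd14, Lbp, Ly96, Myd88 and Il1b), and the others are given as differences in z alone, since a weak signal can hide part of a change. With 1 exception each gene was read by 1 probe set, and Tnf had 2.

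The arrays resembled each other, with median correlations with the other arrays of 0.938 to 0.958. The lowest were TF-5, TF-4 and TS-7, all of tofu-fed rats. The control for the 5' end of beta-actin, which is low where RNA is degraded or copied incompletely, was between 1.30 and 1.42 in TF-3, TS-1, CF-1 and CS-1, against 1.86 to 2.13 in the other 16 arrays. There was 1 such array in each group, the lowest-numbered of that group. The number of arrays limits the precision of every value below.

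Promoter sequence is shown for Cd14 and Cxcl13, since both were higher in tofu-fed rats, and for Il1b, which shares 1 short motif with them. The windows are the 250 bases before an annotated start of the gene in RefSeq, rat build GRCr8. Of the 10 genes 7 had a window, all but Lbp, Ly96 and Ccl2. Windows were searched on both strands for 6 motifs, which were chosen with the windows in view. These were the NF-kB site, the AP-1 site TGANTCA, the C/EBP core TTGCAA, the interferon response element (GAAA, any 2 bases, GAAA), the GC box GGGCGG and the TATA box TATAAA. The sequences run 5′ to 3′ along the strand of the gene, with the C/EBP core and, in Cxcl13, the TATA box in capitals:
Cd14, chr18:28611316-28611345, minus strand: caaaacatttcaTTGCAAtatttactagaa
Cxcl13, chr14:13917921-13918170, minus strand: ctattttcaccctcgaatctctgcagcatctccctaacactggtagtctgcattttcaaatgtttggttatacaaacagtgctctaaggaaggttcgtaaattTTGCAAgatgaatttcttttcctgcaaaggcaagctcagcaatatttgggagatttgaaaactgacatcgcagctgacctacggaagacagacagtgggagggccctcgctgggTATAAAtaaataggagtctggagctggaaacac
Il1b, chr3:137036803-137036831, minus strand: caatgacacacTTGCAAatgtgtcatagt

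The C/EBP core began 175 bases before the start of Cd14, 147 bases before that of Cxcl13 and 239 bases before that of Il1b. The gene spans annotated for Cd14 and for Tlr2 reach over their windows, so for these genes the start used is not the only one annotated. A C/EBP core was found in 5.08% of the 33465 RefSeq windows of the same length. The TATA box lay 33 bases before the start of Cxcl13 and was also present in Il1b and Tnf, and 12.9% of all windows held one. The NF-kB site occurred among these genes in the Tlr2 window, as a pair of overlapping matches, against 3.54% of all windows. The Myd88 window held an AP-1 site (6.34% of all windows) and an interferon response element (3.41%), and GC boxes (30.5%) were found in Tlr2, Myd88 and Tnf. None of the 6 motifs was found in the Tlr4 window. These matches describe letters in a window and say nothing of binding.

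Cd14 mRNA was higher in every tofu-fed rat than in any casein-fed rat. In the TF group z was 1.30 in TF-3, 1.71 in TF-4, 1.71 in TF-5, 1.55 in TF-6 and 1.68 in TF-7. In the TS group it was 1.60 in TS-1, 1.49 in TS-2, 1.51 in TS-4, 1.69 in TS-5 and 1.45 in TS-7. The tofu groups overlapped each other, and TF-3, one of the arrays with low 5' beta-actin, was the lowest tofu-fed rat. In the CF group z was 0.995 in CF-1, 0.731 in CF-2, 1.04 in CF-5, 1.12 in CF-6 and 1.15 in CF-7. In the CS group it was 1.09 in CS-1, 0.989 in CS-2, 0.913 in CS-5, 0.953 in CS-6 and 0.771 in CS-7. The casein groups overlapped each other as well, and their highest rat, CF-7, lay below TF-3 by 0.15.

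Mean Cd14 z was 1.59 ± 0.17 in TF and 1.55 ± 0.10 in TS rats, against 1.01 ± 0.17 in CF and 0.94 ± 0.12 in CS rats (SD, n = 5 each). Over both oils tofu exceeded casein by 0.59 in z (SE 0.062), a 2.78-fold difference. With fish oil the difference between TF and CF was 0.58 (SE 0.087, 2.73-fold), and with soybean oil that between TS and CS was 0.60 (SE 0.087, 2.82-fold). The size of the tofu difference was thus about the same on either oil, and the interaction was -0.02 (95% confidence interval -0.28 to 0.24, limma adjusted p = 1).

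Cxcl13 separated the rats by protein in the same way. The TF rats had z of 0.374 in TF-3, 0.267 in TF-4, 0.449 in TF-5, 0.532 in TF-6 and 0.650 in TF-7. The TS rats had 0.456 in TS-1, 0.256 in TS-2, 0.176 in TS-4, 0.578 in TS-5 and 0.627 in TS-7. The values of both tofu groups spread over a similar range. The CF rats had -0.153 in CF-1, -0.0615 in CF-2, -0.489 in CF-5, -0.0176 in CF-6 and -0.246 in CF-7. The CS rats had 0.0734 in CS-1, -0.238 in CS-2, -0.313 in CS-5, 0.0399 in CS-6 and -0.140 in CS-7. The lowest tofu-fed rat, TS-4, lay above the highest casein-fed rat, CS-1, by 0.10.

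Mean Cxcl13 z was 0.45 ± 0.15 in TF and 0.42 ± 0.20 in TS rats, against -0.19 ± 0.19 in CF and -0.12 ± 0.17 in CS rats (SD, n = 5 each). Tofu exceeded casein by 0.59 (SE 0.075) over both oils, by 0.65 between TF and CF and by 0.53 between TS and CS (SE 0.11 each). Casein-fed rats lay near or below the array medians, so no fold was calculated. The interaction was 0.11 (95% confidence interval -0.20 to 0.43, adjusted p = 1).

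**Figure D1:**
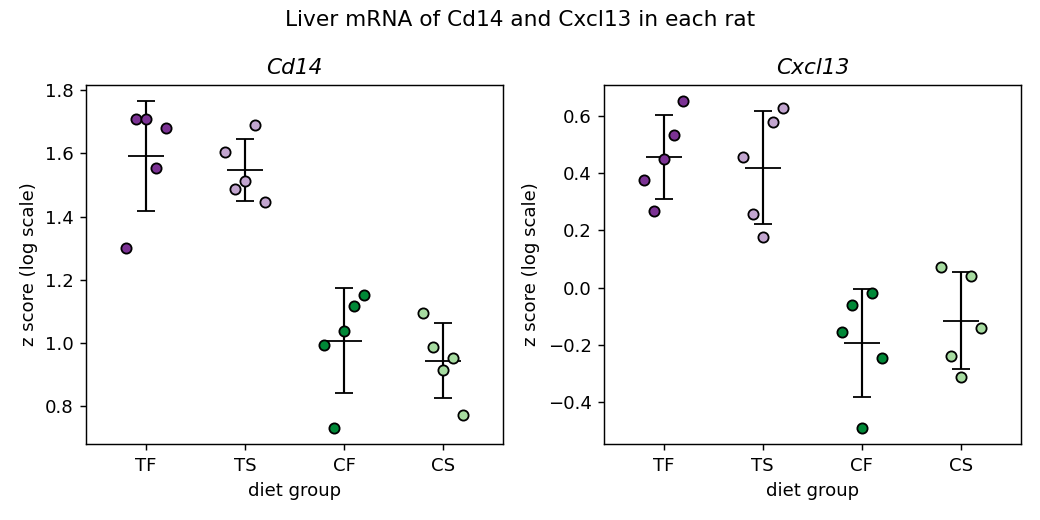
Liver z scores (log scale, vertical axes) of Cd14 and Cxcl13 in the TF, TS, CF and CS groups, 1 point per rat, with horizontal bars for group means and whiskers for 1 SD (n = 5 each). The 10 tofu-fed rats lie above the 10 casein-fed rats for both genes, with gaps of 0.15 for Cd14 and 0.10 for Cxcl13.

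Among all probe sets 173 of 31039 (0.557%) passed an adjusted p of 0.05 for tofu against casein, 93 of them (0.3%) higher in tofu-fed rats, and 2 of the 10 genes were among the higher ones. In 15 probe sets (0.0483%) all tofu-fed rats lay above all casein-fed rats. Cd14 and Cxcl13 were chosen from this comparison, so these counts are for orientation. By the size of the difference Cd14 ranked 2 and Cxcl13 ranked 3 among the 74 genes called higher in tofu-fed rats, after Fmo1, a flavin-containing monooxygenase (0.73). The Cd14 difference was 0.64 without the arrays low in 5' beta-actin and 0.57 without TF-5, TF-4 and TS-7, and that of Cxcl13 was 0.63 and 0.60 in these fits.

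No effect of fish oil was detectable for either gene. Cd14 was 0.05 higher with fish oil than with soybean oil (95% confidence interval -0.08 to 0.18, adjusted p = 1), with a difference of 0.04 between TF and TS and of 0.06 between CF and CS (SE 0.087 each). For Cxcl13 the oil difference was -0.02 (-0.18 to 0.14, adjusted p = 1). Both intervals end below the tofu difference of 0.59.

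Across all 20 rats Cd14 and Cxcl13 varied together, with a Pearson r of 0.82. Both genes were picked for their difference between tofu-fed and casein-fed rats, and that choice alone raises r over all rats. After the mean of its group was taken from each rat r was 0.09. With so few rats per group this value cannot tell a moderate relation within a diet from none. In the TS group TS-7 had the lowest Cd14 and the highest Cxcl13. These correlations share arrays and normalization and are given as a description.

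**Figure D2:**
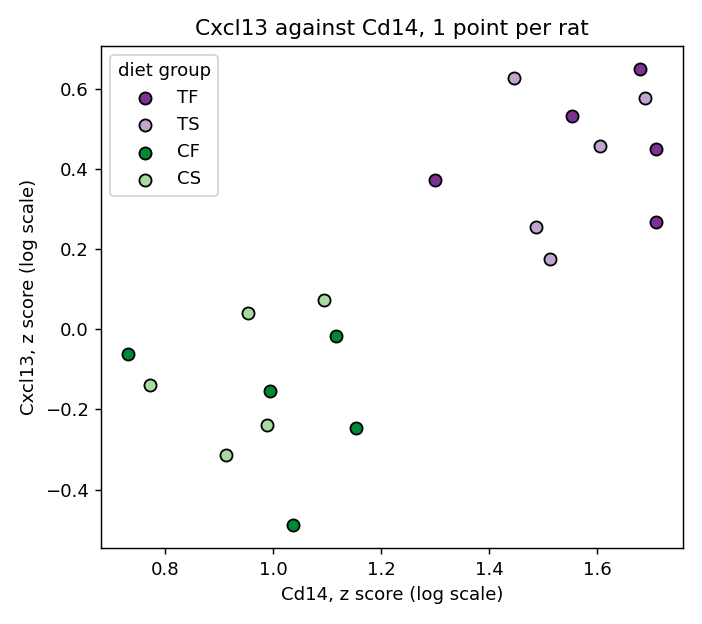
Cxcl13 z (vertical axis, log scale) against Cd14 z (horizontal axis, log scale), 1 point per rat, coloured by diet group. Tofu-fed and casein-fed rats form separate clouds, and both genes were picked for that difference. The r of deviations from group means was 0.09, which with so few rats per group leaves a relation within a diet undecided.

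The 8 other genes showed no such separation, and few probe sets did. All tofu-fed rats lay above all casein-fed rats in 0.0483% of probe sets and below them in 0.0451%. Cd14 and Cxcl13 had been picked from this comparison. Over the 8 other genes the tofu minus casein difference ran between -0.058 and 0.079. Including Cd14 and Cxcl13 the median difference of the 10 genes was 0.025, with 8 above 0, and the median over all genes was 0.011. Tofu-fed and casein-fed rats overlapped for each of the 8.

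Lbp, the carrier protein, had a mean z of 1.07 ± 0.11 in TF and 1.02 ± 0.22 in TS rats, against 1.0 ± 0.09 in CF and 1.04 ± 0.09 in CS rats (SD, n = 5 each). The tofu difference was 0.02 (SE 0.059), and 4 of the 10 tofu-fed rats lay above the casein mean. The wide spread of the TS group came from TS-1, an array with low 5' beta-actin, at 1.40, against 0.861 to 0.986 in the other TS rats. CS-1 and CF-1, also low in 5' beta-actin, were the highest of their groups at 1.17 and 1.12. TF-3, at 1.13, was not the highest of the TF rats.

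Ly96, which encodes the lipopolysaccharide-binding MD-2, averaged 0.32 ± 0.05 in TF and 0.32 ± 0.14 in TS rats, against 0.37 ± 0.08 in CF and 0.39 ± 0.05 in CS rats. The tofu difference was -0.06 (SE 0.040). TS rats ran between 0.153 and 0.464 and so spanned most of the range of the other groups.

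Tlr4, the signalling receptor, gave a weak signal, with every rat below the median of its array. The TF rats had z of -0.746 in TF-3, -0.517 in TF-4, -0.614 in TF-5, -0.502 in TF-6 and -0.398 in TF-7. The TS rats had -0.419 in TS-1, -0.289 in TS-2, -0.365 in TS-4, -0.528 in TS-5 and -0.282 in TS-7, the highest group. The CF rats lay between -0.671 and -0.489 and the CS rats between -0.593 and -0.404. Tofu-fed rats exceeded casein-fed rats by 0.06 (SE 0.045), with 4 tofu-fed rats above all casein-fed rats and the lowest rat also tofu-fed.

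For Tlr4 the oil difference was the largest of the 10 genes, -0.12 (SE 0.045, 95% confidence interval -0.21 to -0.02). Its unadjusted p was 0.0166 and its limma adjusted p over all probe sets 0.716, so it did not pass. Of the 10 fish oil rats 1 lay above the soybean oil mean. The difference was -0.18 between TF and TS and -0.06 between CF and CS (SE 0.064 each), and the interaction was -0.12 (95% confidence interval -0.31 to 0.07, adjusted p = 1).

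Tlr2, the receptor for bacterial lipoproteins, averaged -0.11 ± 0.10 in TF and -0.21 ± 0.11 in TS rats, against -0.19 ± 0.13 in CF and -0.15 ± 0.08 in CS rats. The tofu difference was 0.01 (SE 0.047), and 5 of the 10 tofu-fed rats lay above the casein mean. Its interaction, 0.14, had a 95% confidence interval of -0.06 to 0.33 (adjusted p = 1). Neighbouring group means differed by less than the SDs of the groups.

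Myd88, the adaptor shared by most Toll-like receptors, had the smallest standard error of the 10 genes, with SDs of 0.05 to 0.07 within groups. It averaged 1.23 ± 0.05 in TF and 1.18 ± 0.07 in TS rats, against 1.28 ± 0.07 in CF and 1.23 ± 0.05 in CS rats. The tofu difference was -0.05 (SE 0.031), and the oil difference was 0.05 (95% confidence interval -0.01 to 0.11, adjusted p = 0.956). These differences were of similar size and opposite sign.

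Among Il1b, Tnf and Ccl2 the largest tofu difference was that of Il1b, the gene of interleukin-1 beta, at 0.08 (SE 0.038, 1.14-fold). It averaged 0.26 ± 0.10 in TF and 0.24 ± 0.06 in TS rats, against 0.19 ± 0.09 in CF and 0.15 ± 0.06 in CS rats. Of the 10 tofu-fed rats 8 lay above the casein mean, and 7 of the 10 casein-fed rats fell inside the tofu range. The lowest rat, CS-7 at 0.0358, stood apart from the other CS rats at 0.169 to 0.185.

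Tnf, the gene of tumour necrosis factor, averaged -0.11 ± 0.06 in TF and -0.13 ± 0.10 in TS rats, against -0.12 ± 0.12 in CF and -0.17 ± 0.10 in CS rats. Its tofu difference was 0.03 (SE 0.043) by the main probe set and 0.01 (SE 0.080) by the second. The second probe set was dimmer, with rats between -1.14 and -0.394, and its oil difference of 0.12 did not pass (adjusted p = 0.964).

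Ccl2, a chemokine that draws monocytes, averaged -0.42 ± 0.15 in TF and -0.42 ± 0.19 in TS rats, against -0.41 ± 0.10 in CF and -0.47 ± 0.12 in CS rats. The tofu difference was 0.02 (SE 0.062). TS-5, at -0.101, was the highest rat, and the other 4 TS rats ran between -0.605 and -0.456.

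**Figure D3:**
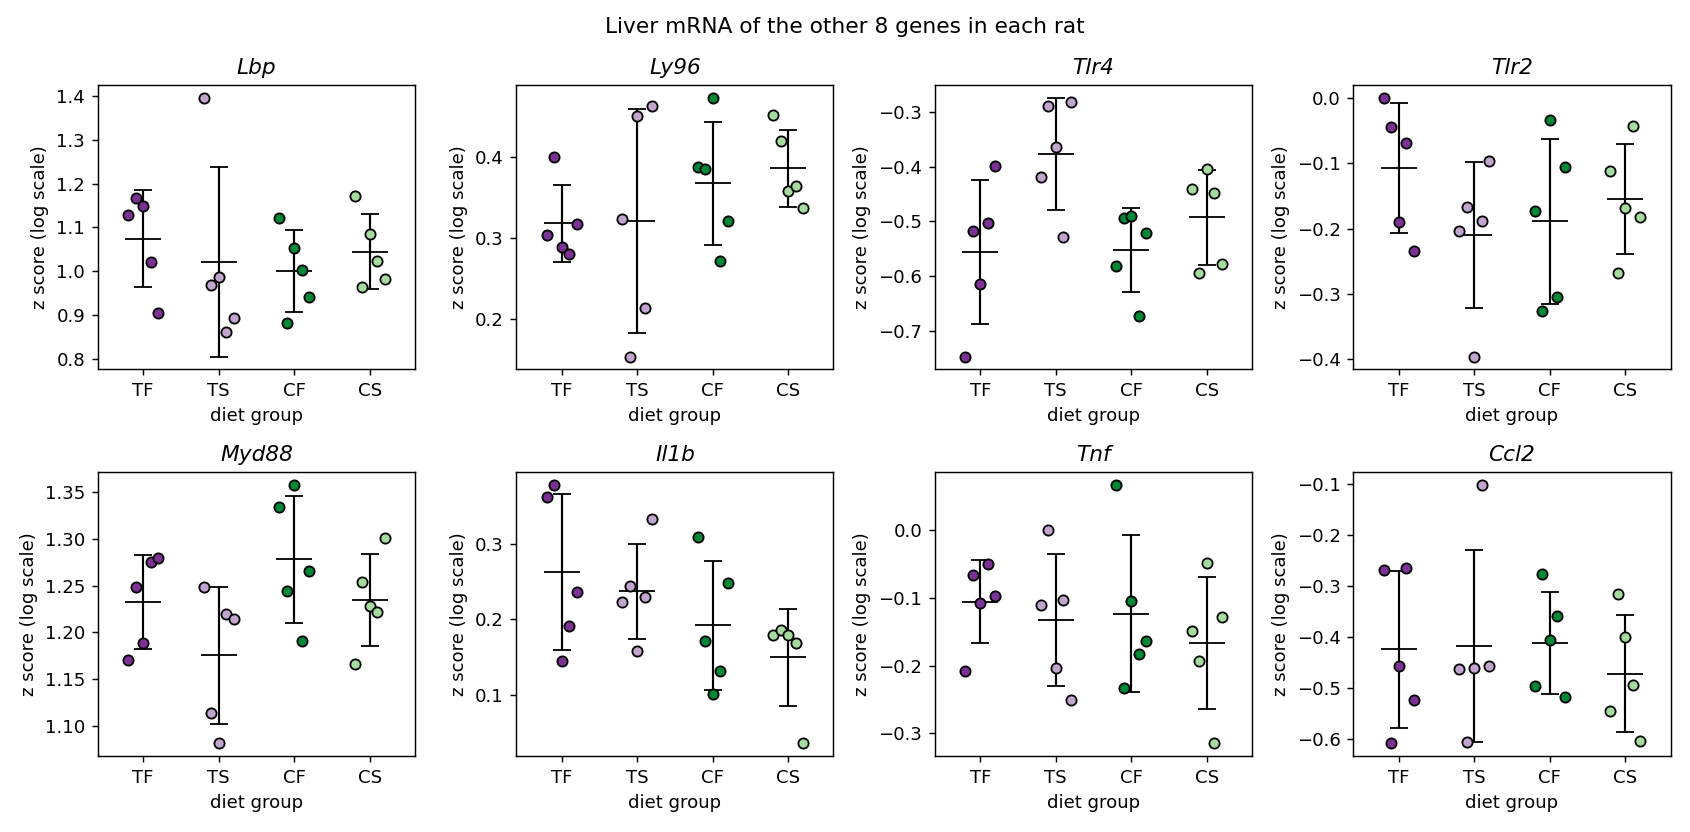
Liver z scores (log scale, vertical axes, a separate scale per gene) of Lbp, Ly96, Tlr4, Tlr2, Myd88, Il1b, Tnf and Ccl2 in the TF, TS, CF and CS groups, 1 point per rat, with horizontal bars for group means and whiskers for 1 SD (n = 5 each). Tofu-fed and casein-fed rats overlap in every panel, and TS-1 for Lbp and CS-7 for Il1b stand apart from their groups.

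In the tested comparisons none of the 10 genes was called by limma. For the oil effect, 60 of 31039 probe sets (0.193%) passed, 55 higher (0.177%) and 5 lower (0.0161%) with fish oil. In that comparison 1 of the 10 genes (Tlr4) had an unadjusted p under 0.05, as did 5.55% of all probe sets, and a fit without moderation of the variance called 0 of them. The smallest adjusted p of the 10 was 0.716, and the median oil difference was 0.030, against -0.002 over all genes. For the interaction 0 of 31039 probe sets (0%) passed in either fit, with 1065 at an unadjusted p under 0.05, and 0 of the 10 genes reached that. The intervals for the interaction were wide, up to 0.31 in z on either side of the estimate for Cxcl13, so a modest dependence of the tofu difference on the oil was not detectable with 5 rats per group.

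**Figure D4:**
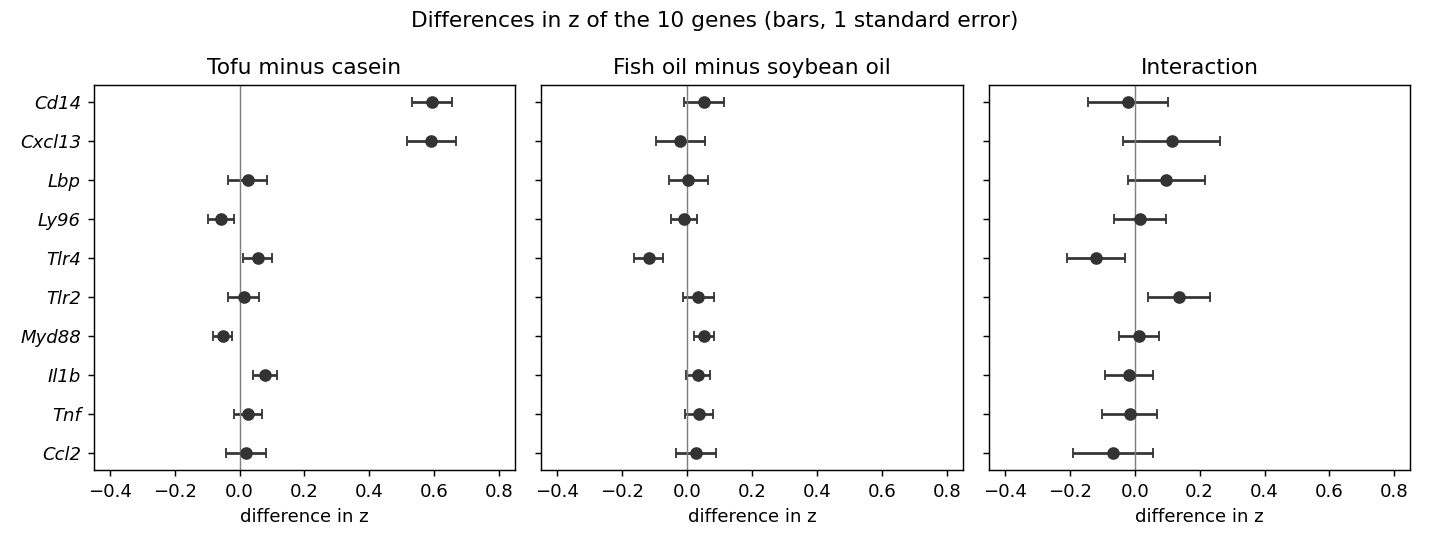
Differences in z (horizontal axes) of the 10 genes for tofu minus casein, fish oil minus soybean oil and the interaction, the TF minus TS difference less the CF minus CS difference. Points are limma estimates over 20 rats and bars 1 standard error; Cd14 and Cxcl13 stand at 0.59 for tofu and the other 8 genes lie between -0.058 and 0.079.

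The wider pathway was described with 6 lists of 102 genes, beside the 10, of which 86 were measured. In the tofu against casein comparison 1 of the 86 rose, 0 fell and 50 had a difference above 0, with a median of 0.005, against 58.0% of all genes above 0 and a median of 0.011. In the oil comparison 0 of the 86 were called and 26 were above 0, with a median of -0.013, against 48.2% and -0.002. No gene of the lists was called for the interaction. Over all probe sets 0.557% passed for tofu against casein and 0.193% for oil, and 10.2% and 5.55% had an unadjusted p under 0.05.

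Among 8 measured receptors and carriers beside the 10 genes, 0 were called for tofu and 1 had an unadjusted p under 0.05. The largest difference was that of Cd180, a Toll-like protein of B cells (0.17, SE 0.055, adjusted p = 0.221), followed by Cd36, a scavenger receptor and fatty acid carrier (0.16, SE 0.079, adjusted p = 0.508). Of 18 genes of MyD88 and TRIF signalling 0 were called and 1 had an unadjusted p under 0.05, with 9 above and 9 below 0. Ticam1, the gene of the adaptor TRIF through which TLR4 also signals, had the largest difference at -0.14 (SE 0.055, adjusted p = 0.358), and Chuk, a kinase that acts on the NF-kB inhibitor, had -0.11 (SE 0.059, adjusted p = 0.557).

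Of 15 NF-kB and interferon regulatory factor genes 0 were called for tofu or oil, with 0 and 1 at an unadjusted p under 0.05. Bcl3, an NF-kB cofactor, had the largest oil difference in the list, -0.23 (SE 0.062, adjusted p = 0.33). All 25 cytokine, chemokine and adhesion targets were measured and 0 were called, with 1 at an unadjusted p under 0.05 for tofu and 1 for oil. Sele, the endothelial adhesion protein E-selectin, had a tofu difference of -0.17 (SE 0.12, adjusted p = 0.682), Il6 one of 0.15 (SE 0.092, adjusted p = 0.634) and Il18, an inflammasome-processed cytokine, one of 0.13 (SE 0.043, adjusted p = 0.245). With fish oil Cxcl1, a neutrophil chemokine, differed by -0.23 (SE 0.086, adjusted p = 0.711). Over all probe sets 0.557% passed for tofu and 0.193% for oil. The 0 called of 25 is near those shares and is no result about the targets. Of the 25 targets 13 had a mean z above the highest array median.

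Of 8 genes of lipopolysaccharide inactivation and clearance 0 were called, with 1 at an unadjusted p under 0.05 for tofu and 1 for oil. Stab2, a scavenger receptor of sinusoidal endothelial cells, came nearest with a tofu difference of 0.13 (SE 0.031, adjusted p = 0.0635), and a fit without moderation of the variance called it. Pltp, a phospholipid transfer protein that also moves lipopolysaccharide between particles, had an oil difference of -0.10 (SE 0.053, adjusted p = 0.918).

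Cxcl12, a chemokine of stromal and endothelial cells that acts through CXCR4, was the one listed gene that rose with tofu. The lists were drawn up with earlier results of these data known, so this call and its adjusted p are given for orientation. It stood at 2.51 in TF-3, 2.44 in TF-4, 2.37 in TF-5, 2.42 in TF-6 and 2.36 in TF-7, and at 2.28 in TS-1, 2.26 in TS-2, 2.27 in TS-4, 2.31 in TS-5 and 2.39 in TS-7. In casein-fed rats it stood at 2.23 in CF-1, 2.33 in CF-2, 2.25 in CF-5, 2.22 in CF-6 and 2.19 in CF-7, and at 2.09 in CS-1, 2.19 in CS-2, 2.13 in CS-5, 2.15 in CS-6 and 2.06 in CS-7. All 10 tofu-fed rats lay above the casein mean, but CF-2 lay above 4 of them.

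The Cxcl12 means were 2.42 ± 0.06 in TF and 2.30 ± 0.05 in TS rats, against 2.24 ± 0.05 in CF and 2.12 ± 0.05 in CS rats (SD, n = 5 each). The tofu difference was 0.18 (SE 0.028, 1.36-fold, limma adjusted p = 0.00422), against 0.59 for Cd14. Without the 4 arrays low in 5' beta-actin the difference was 0.16 (SE 0.032), and with fewer rats it did not pass (adjusted p = 0.0517). Over the settings tried the adjusted p ran between 0.000577 and 0.06. The oil difference of 0.12 did not pass (adjusted p = 0.167) but did so when each array was scaled to the same median and interquartile range (adjusted p = 0.0159) and when only brighter probe sets were tested (adjusted p = 0.0377).

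The other 11 genes measured of the CXCL13 axis and lymphoid chemokines were not called. Cxcr5, the receptor of CXCL13, had a tofu difference of -0.05 (SE 0.048, adjusted p = 0.765). Cxcr4, the receptor of CXCL12, had 0.15 (SE 0.066, adjusted p = 0.435), and Tnfsf11, a lymphoid organizer cytokine, had 0.20 (SE 0.12, adjusted p = 0.598). The mean z of Cxcr4 and that of Tnfsf11 lay below the lowest array median, though Cxcr4 reached 0.17 in a tofu-fed rat. Cxcr5 was brighter, with a mean z of 0.80.

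**Figure D5:**
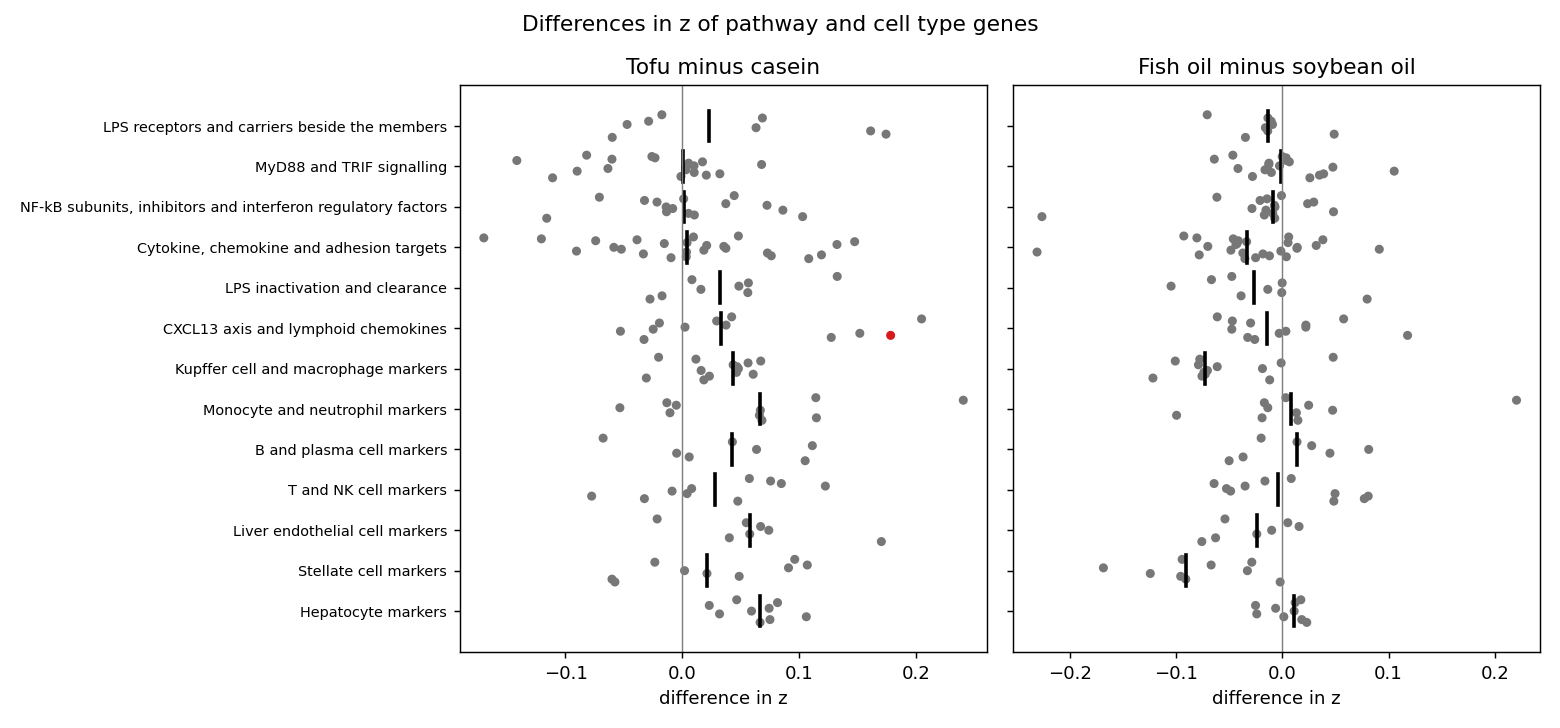
Differences in z (horizontal axes) of the measured genes of 6 pathway lists and 7 cell type marker lists for tofu minus casein and fish oil minus soybean oil, 1 point per gene, with a vertical bar at the median of each list. Cxcl12, in red, is the only gene called, and no list has its points on the scale of the 0.59 of Cd14 and Cxcl13.

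In whole liver a change in the number of cells of a type and a change in the RNA of each cell cannot be told apart, so markers of the cell types that could carry Cd14 and Cxcl13 are given beside them. Of 16 Kupffer cell and macrophage markers 13 were measured, and 0 were called for tofu, against 0.557% of all probe sets. Their median tofu difference was 0.043, with 11 above 0, against a median of 0.011 and 58.0% above 0 over all genes. Clec4f, a lectin particular to Kupffer cells, differed by 0.04 (SE 0.043, adjusted p = 0.791) and Cd163, a macrophage scavenger receptor, by 0.02 (SE 0.047, adjusted p = 0.947). The mean z of the 13 ran between 0.942 and 1.16 in TF and 1.01 and 1.21 in TS rats, against 0.996 to 1.06 in CF and 0.924 to 1.13 in CS rats. These ranges overlapped. Cd14 was chosen from this same comparison, so its lack of overlap says nothing about the markers. A change in the number of these cells was not tested.

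Hepatocyte markers were strong in every array, with a mean z between 2.94 and 3.17 over all rats. All 9 measured, of 10 listed, lay above 0 for tofu, with a median of 0.066 and 0 called, and Asgr1, a subunit of the asialoglycoprotein receptor, had the largest difference (0.11, SE 0.026, adjusted p = 0.0885). Of 7 endothelial markers 6 lay above 0, with 0 called, and Fcgr2b, an Fc receptor of sinusoidal endothelium, came nearest (0.17, SE 0.039, adjusted p = 0.0534). Over all genes 58.0% lay above 0 for tofu, and 0.557% of all probe sets were called. The part of these cell types in the Cd14 and Cxcl13 differences was not tested.

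Markers of B cells, which CXCL13 draws, gave mostly weak signals. Of 10 B and plasma cell markers 7 were measured, 2 of them above the highest array median, with 5 above 0 for tofu and 0 called. Jchain, the joining chain of secreted antibodies, had the largest difference (0.11, SE 0.052, adjusted p = 0.469) and Blk, a B cell kinase, followed (0.10, SE 0.041, adjusted p = 0.364). Their mean z ran between -0.0954 and -0.0109 in TF and -0.131 and 0.00931 in TS rats, against -0.154 to -0.0289 in CF and -0.143 to -0.0458 in CS rats, and these ranges overlapped.

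Of 10 measured monocyte and neutrophil markers 0 were called, and S100a8, a calcium-binding protein of neutrophils, had the largest tofu difference of any marker (0.24, SE 0.10, adjusted p = 0.416). Among 10 T and NK cell markers 0 were called, with Cd8b at 0.12 (SE 0.071, adjusted p = 0.599). Among 9 stellate cell markers 0 were called, with Lrat, an enzyme of retinol storage, at 0.11 (SE 0.073, adjusted p = 0.669). No marker list held a gene that passed the moderated test for tofu. Over all probe sets 0.557% passed it, so 0 called in lists this short is no result about the cell types. The fit without moderation called Asgr1 and Fcgr2b, among 205 of 31039 probe sets. At an unadjusted p under 0.05 for tofu there were 3 hepatocyte, 3 monocyte and neutrophil, 2 endothelial, 2 B cell and 1 stellate cell markers, and 0 Kupffer cell and 0 T cell markers, against 10.2% of all probe sets.

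The genes whose z over the 20 rats was most like that of Cd14, among 9025 other genes with a mean above the highest array median, were Fmo1 (r = 0.90), Smagp (0.88), Rnd2 (0.88), LOC102554026 (0.86) and Ces1c, a carboxylesterase (0.86). After group means were taken out their r with Cd14 lay between 0.13 and 0.43. For Cxcl13 they were Oat, ornithine aminotransferase (r = 0.87), Adam15 (0.86), C2cd2 (0.85), the protease inhibitor A2m (0.84) and Fmo1 (0.82). The first 4 had an r of 0.45 to 0.53 within groups, and Fmo1 one of 0.03. Picking the highest r over the same 20 rats favours genes that also vary together within groups. The values within groups are therefore a description and no check of a relation within a diet. Tlr4, Tlr2, Tnf and Ccl2 were too dim to enter this search, and the r of the other 8 genes of lipopolysaccharide sensing with Cd14 ran between -0.35 and 0.43.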

How the data were processed

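Liver RNA of 20 rats was hybridised to 20 Affymetrix rat genome arrays, 1 per rat. The deposited score of each probe set and array is a log-scale z, which the authors obtained by SuperNORM normalization. By the methods, group differences were trimmed means over Perfect Match cells; the version of the service, its handling of background and how cells were combined into the value of each array are not given in the sources used here. The table held 31099 probe sets, 57 of them controls that were not used, and 63 missing values, 0 of them in the 10 genes. Tests covered the 31039 probe sets that had 3 or more values per group. Symbols followed the annotation of the array, updated by Entrez identifier for 20757 probe sets and kept for 68; 20825 had 1 symbol and could be named, 436 had several and 9778 had none. A gene was represented by its probe set with the highest mean z over all arrays.

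Group means were compared with limma 3.58.1 in R 4.3.3, without covariates, for tofu minus casein, fish oil minus soybean oil and the interaction. P-values were adjusted by Benjamini and Hochberg across the whole table, and a call needed an adjusted p under 0.05. The 10 genes and all lists and markers were chosen with earlier results of these data known. The text names the 10 genes, every gene of a list that was called and up to 3 per list with the largest differences (Clec4f, Cd163 and Cxcr5 were added as defining genes after their values were seen), and the 5 genes most correlated with Cd14 and with Cxcl13. The workflow was tested on simulated data. Alternatives were quantile and interquartile scaling, a filter on dim probe sets, a block for the rat number, unmoderated and trended variances, array weights, a stricter threshold, averaging the probe sets of Tnf, and fits without single rats or sets of arrays.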

Additional observations from a re-analysis of the deposited data

Results flagged for a closer look

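In each of 40 sets of 5 rats, 1 per gene and group, the most extreme rat was compared with its nearest neighbour. In 2 sets it stood apart beyond the limit that chance passes in about 1 in 20 sets. With 40 sets this is about as many as chance gives. Lbp, the lipopolysaccharide carrier, was at z 1.40 in TS-1, against 0.986 in the next TS rat, and this array was 1 of the 4 low in 5' beta-actin. Of the other such arrays CS-1 and CF-1 were also the highest of their groups for Lbp, and TF-3 was not. Il1b was at 0.0358 in CS-7, against 0.169 in the next CS rat. Without CS-7 or any other single rat the tofu minus casein difference of Il1b stayed between 0.064 and 0.093, and that of Lbp between -0.022 and 0.046.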

How the results depend on the processing

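The tofu minus casein difference, which chose Cd14 and Cxcl13, ran over the alternatives between 0.567 and 0.641 for Cd14 and between 0.576 and 0.677 for Cxcl13. Without any 1 rat it ran between 0.560 and 0.630 for Cd14 and between 0.554 and 0.621 for Cxcl13. None of the 10 genes was called for oil or the interaction in any fit run. The count of probe sets called for tofu against casein (173) became 358 with brighter probe sets only and 289 with a variance trend. It became 72 without the arrays low in 5' beta-actin, 74 without the 3 least correlated arrays, 61 at a threshold of 0.01, and 114 (without CS-2) to 164 without any 1 rat. The oil count (60) became 34 without the 3 least correlated arrays, 37 at a threshold of 0.01, and 46 (without CF-5) to 60 without any 1 rat. The interaction count was 0 in each of these fits. The main fit did not pair rats by the numbers in the labels. Deviations from group means correlated over 0.1 in 1 of 22 same-numbered pairs (range -0.098 to 0.127). That pair was CS-1 and CF-1, both low in 5' beta-actin. Whether the numbers mark rats or arrays handled together was not tested. With the rat number as a replicate block 91 probe sets were called for tofu, 27 for oil and 0 for the interaction, and Cxcl12 lost its call (difference 0.17, adjusted p = 0.06). The cause of these shifts was not tested beyond the smaller number of arrays or probe sets in a fit. Values carry no measure of background, so small differences of dim genes such as Tlr4, Tnf and Ccl2 cannot be bounded as folds.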

Other observations

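None of the cell type markers was called for oil by limma, with or without moderation of the variance. Over all probe sets 0.193% passed with moderation, so this is no result about the markers. Of 13 measured Kupffer cell and macrophage markers 12 had a difference below 0 with fish oil, with a median of -0.073 in z, against -0.002 over all genes. Over all genes 48.2% lay above 0. An effect of fish oil on the number of cells of any type was not tested. Aif1, a macrophage calcium-binding protein, differed by -0.12 (SE 0.050, adjusted p = 0.802), Lyz2, lysozyme, by -0.10 (SE 0.038, adjusted p = 0.718) and Clec4f by -0.08 (SE 0.043, adjusted p = 0.94). At an unadjusted p under 0.05 there were 3 of the 13, against 5.55% of all probe sets. All 9 measured stellate cell markers had a difference below 0, with a median of -0.091 and 4 at an unadjusted p under 0.05. Hhip differed by -0.17 (SE 0.068, adjusted p = 0.786), Dcn, the matrix proteoglycan decorin, by -0.12 (SE 0.072, adjusted p = 0.944) and Col3a1, a fibrillar collagen, by -0.10 (SE 0.037, adjusted p = 0.74). Of 7 endothelial markers 5 lay below 0 (median -0.024). The other lists were divided: 4 of 10 monocyte and neutrophil markers (median 0.008), 3 of 7 B and plasma cell markers (median 0.014), 5 of 10 T and NK cell markers (median -0.004) and 3 of 9 hepatocyte markers (median 0.011) lay below 0.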
